A study of Mus musculus with 8 samples.

Results

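The aldo-keto reductases studied here are 10 mouse genes: Akr1a1, Akr1b7, Akr1b8, Akr1c6, Akr1c12, Akr1c13, Akr1c14, Akr1c19, Akr1c20 and Akr7a5. Their transcript clusters, the array's unit for a gene, were selected by gene symbol in the platform annotation. Of the 10 genes, 9 had a cluster, 1 each, among 35556 clusters on the array, and 0 of the 9 clusters carried several symbols. No cluster was listed under the symbol Akr1b7, so that gene was not analysed here. The family was chosen with measured values in view: Akr1c19 was selected on its lower signal with high fat and its higher signal with arsenite added to high fat. The values of these genes in those 2 comparisons are therefore given as a description, with no test.

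Liver RNA of male C57Bl/6J mice was hybridised to 8 Affymetrix arrays. The LFD group ate a low-fat diet with 13% of calories from fat and drank deionized water, and the HFD group ate a high-fat diet with 42% and drank the same water. The LFD+As and HFD+As groups ate these same diets and drank deionized water to which sodium arsenite had been added (3 mg iAs/L, where iAs is inorganic arsenic). The labels' protocols give 10 weeks of exposure and a source label gives 90 days, which could not be reconciled. Each group held 10 mice and was measured on 2 arrays (replicates 1 and 2), each with pooled RNA of 5 mice, so all errors below describe the spread between pools and not between mice. All signals are log2 values, and because the probes of different genes respond differently, levels are compared between arrays for 1 gene at a time and not between genes.

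Aldo-keto reductases are soluble enzymes that use NADPH or NADH to reduce aldehydes and ketones to alcohols, and some run mainly in the other direction. In liver they inactivate steroid hormones, take part in bile acid and ascorbate metabolism, and remove reactive aldehydes formed from lipids and foreign compounds. The mouse Akr1c genes lie side by side on chromosome 13 and several are closely similar in sequence, so a probe for 1 of them may also bind transcripts of its relatives. For that reason the Akr1c signals, those of Akr1c12 and Akr1c13 above all, are uncertain as measures of a single gene.

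Across the arrays, signals correlated at r between 0.983 and 0.991 within a group and between 0.974 and 0.991 for any pair (across clusters, which are not independent replicates). Hepatocyte markers were abundant in every group: 11 of 12 listed markers were measured, with mean signals between 12.4 and 14.5. An array's deviations from the gene means also went with gene span (first to last base of a gene, introns included). Across genes, Spearman's rho ranged from 0.138 to 0.346 over the LFD and LFD+As arrays. The HFD arrays had 0.245 and -0.136, and the HFD+As arrays -0.454 and -0.293. Both HFD+As arrays were thus lower than the other 6, and calls that are lost with this trend removed are named beside the result. Differences were tested with limma over 11963 genes and adjusted by Benjamini-Hochberg at a threshold of 0.05; 8 of the 9 measured family members passed the filter on low signals.

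Akr1c19, which encodes an NAD-linked dehydrogenase that oxidises a range of alcohols, varied most within the family. Its signal was 10.18 and 9.92 on the LFD arrays, 10.41 and 10.25 on the LFD+As arrays, 9.08 and 9.19 on the HFD arrays and 10.14 and 10.75 on the HFD+As arrays. Both HFD arrays lay below every other array. The arrays of the other 3 groups lay between 9.92 and 10.75, with HFD+As overlapping with LFD and with LFD+As. The range over the 8 arrays was 1.67 log2 units, above that of 99.5% of the tested genes, where the median range was 0.44. This range rests on the HFD arrays by which the gene was chosen.

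Described as a difference, Akr1c19 was -0.92 (SE 0.17) in HFD against LFD, a signal 1.89-fold lower, and 1.31 (SE 0.17) in HFD+As against HFD, a signal 2.48-fold higher. Leaving out each array in turn gave values from -1.05 to -0.79 for the first and from 1.003 to 1.61 for the second, and removal of the span trend gave -0.96 and 1.43. The low end of the second range omitted HFD+As replicate 2 and the high end omitted HFD+As replicate 1. Over all genes tested, limma called 55 (0.46%) in HFD against LFD and 434 (3.63%) in HFD+As against HFD. Of the 8 tested members 1 was called lower in the first and 1 higher in the second, Akr1c19 in both, which follows from how it was chosen. In mice on LFD, arsenite was accompanied by a difference of 0.28 (SE 0.17), with both LFD+As arrays above both LFD arrays. The rule did not use this comparison, but its LFD arrays entered HFD against LFD, so the value is given with no test. The arsenite difference on HFD minus that on LFD was 1.03 (SE 0.24), a value that contains a selecting comparison and is given with no test.

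Between the 2 groups given arsenite, the difference of Akr1c19 was 0.11 (SE 0.17), with overlapping arrays. Its HFD+As arrays also entered a selecting comparison, so this difference is given with no test. In HFD+As against LFD the difference of Akr1c19 was 0.39 (SE 0.17), which is the sum of the 2 selecting differences and is given with no test. This value ranged from 0.09 without HFD+As replicate 2 to 0.70 without HFD+As replicate 1.

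**Figure D1:**
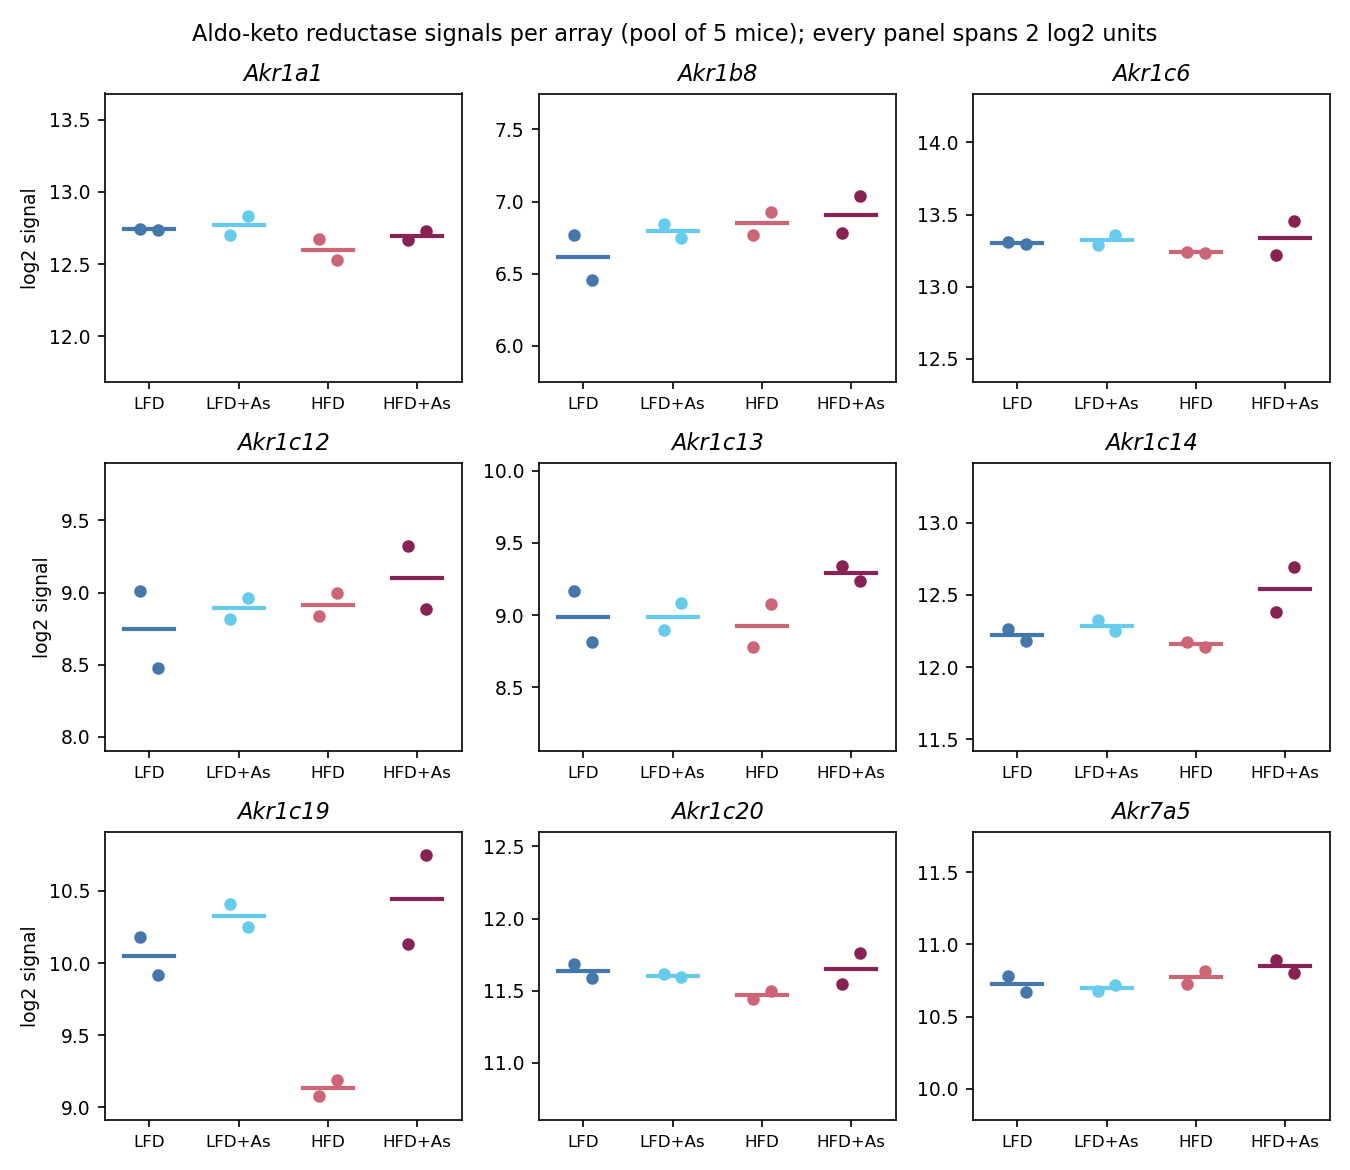
Log2 signal (y axis) of the 9 measured aldo-keto reductases in each array, with 1 panel per gene; each panel spans 2 log2 units around its own middle, points are single arrays (pools of 5 mice) and bars are group means of 2 arrays. The Akr1c19 points of HFD, at 9.08 and 9.19, lie below those of all other groups, whereas the 8 arrays of each other member lie within 0.84 log2 units.

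Akr1c12 and Akr1c13 lie on either side of Akr1c19 on chromosome 13 and encode dehydrogenases of hydroxysteroids and of foreign alcohols. The 250 bases before the start of each of these 3 genes are shown so that the start regions of neighbouring genes with unlike signals can be compared, in RefSeq sequence of mouse assembly GRCm38.p6. The windows are chr13:4233490-4233739 on the plus strand for Akr1c19, chr13:4279400-4279649 on the minus strand for Akr1c12 and chr13:4190937-4191186 on the plus strand for Akr1c13. Capitals mark CATTAG, a run of letters picked after looking at these sequences.
Akr1c19: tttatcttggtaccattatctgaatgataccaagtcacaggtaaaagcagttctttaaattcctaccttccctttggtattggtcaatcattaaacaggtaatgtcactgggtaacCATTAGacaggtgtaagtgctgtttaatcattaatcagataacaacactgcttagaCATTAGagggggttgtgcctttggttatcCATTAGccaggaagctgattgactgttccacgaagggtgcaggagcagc
Akr1c12: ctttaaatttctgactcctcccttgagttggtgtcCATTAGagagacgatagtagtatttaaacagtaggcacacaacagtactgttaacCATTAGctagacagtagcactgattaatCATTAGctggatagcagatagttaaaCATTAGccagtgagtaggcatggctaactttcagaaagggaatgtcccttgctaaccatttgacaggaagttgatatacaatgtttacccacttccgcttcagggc
Akr1c13: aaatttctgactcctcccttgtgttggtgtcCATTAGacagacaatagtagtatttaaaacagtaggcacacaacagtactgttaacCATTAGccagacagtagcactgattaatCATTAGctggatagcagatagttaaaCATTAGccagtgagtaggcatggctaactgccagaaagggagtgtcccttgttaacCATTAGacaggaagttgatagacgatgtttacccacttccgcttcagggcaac

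CATTAG, searched on both strands, occurred 3 times before Akr1c19, 4 times before Akr1c12 and 5 times before Akr1c13. Of 32851 mouse windows of the same length, these included, 6.36% held it at all and 0.0244% held it 3 times or more. These shares are no test of CATTAG, because it was picked from the windows shown. It occurred 1 time before Akr1c6 and was not found in the windows of the other members, of which 9 of 10 were in the table; Akr1c20 was not matched. The Akr1c12 and Akr1c13 windows were 95.5% identical (235 of 246 aligned bases), while Akr1c19 was 64.4% identical to Akr1c13 and 61.1% to Akr1c12, within or near the 48.4% to 64.5% of the 33 other pairs. The repeats of this run of letters in Akr1c12 and Akr1c13 therefore largely count 1 shared sequence. The other motifs were also searched on both strands. TGANNNNGC, the core of the antioxidant response element, occurred 1 time each before Akr1c12 and Akr1c13 and was found in 35.2% of all windows. GTTAAT, a half-site of HNF1, was in none of the members' windows and in 6.43% of all windows. AGGTCA, a nuclear receptor half-site, was in those of Akr1b7 and Akr7a5 (14% of all windows), and TATAAA in those of Akr1b8 and Akr1c6 (12.4%). These matches describe letters in a window and are not binding sites.

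Akr1c12 did not have the pattern of Akr1c19. Its signal was 9.01 and 8.48 on the LFD arrays, 8.82 and 8.96 on the LFD+As arrays, 8.84 and 8.99 on the HFD arrays and 9.32 and 8.88 on the HFD+As arrays. LFD replicate 2 was lowest and HFD+As replicate 1 highest, and the arrays of all 4 groups overlapped. Akr1c13 was 9.17 and 8.81 on the LFD arrays, 8.90 and 9.08 on the LFD+As arrays, 8.78 and 9.07 on the HFD arrays and 9.34 and 9.24 on the HFD+As arrays. Its HFD+As arrays lay above all 6 others. The difference in HFD+As against LFD was 0.36 (SE 0.18, limma adjusted p = 0.19) for Akr1c12 and 0.30 (SE 0.15, adjusted p = 0.183) for Akr1c13. Across the 8 arrays the 2 signals correlated at r = 0.791 (Spearman rho = 0.762), a description of 2 clusters whose probes may share targets. Such a value was not particular to this pair: each signal correlated at r = 0.85 with that of Akr7a5, a gene on chromosome 4. Binding of shared probes was not tested.

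Akr1c14, Akr1c6 and Akr1c20 encode hydroxysteroid dehydrogenases that interconvert active and less active androgens, estrogens and progestins. Akr1c14, the 3-alpha type that acts on dihydrotestosterone, was 12.27 and 12.18 on the LFD arrays, 12.32 and 12.25 on the LFD+As arrays, 12.17 and 12.14 on the HFD arrays and 12.38 and 12.70 on the HFD+As arrays. Its HFD+As arrays were the 2 highest and its HFD arrays the 2 lowest. The difference was 0.31 (SE 0.13, limma adjusted p = 0.107) in HFD+As against LFD and 0.25 (SE 0.13, adjusted p = 0.212) in HFD+As against LFD+As. The gene spans 41.6 kb, against 14.9 kb for Akr1c19, and with the trend of gene span removed the first difference became 0.49 with a limma adjusted p of 0.0232. It was 0.16 without HFD+As replicate 2 and 0.47 with that array kept and HFD+As replicate 1 left out.

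Akr1c6 stayed within 0.24 log2 units over the 8 arrays, a range smaller than that of all but 9.4% of the tested genes. It was 13.31 and 13.29 on the LFD arrays, 13.29 and 13.36 on the LFD+As arrays, 13.24 and 13.24 on the HFD arrays and 13.22 and 13.46 on the HFD+As arrays, so its HFD arrays lay below those of LFD and LFD+As, and HFD+As overlapped all other groups. Akr1c20 was 11.69 and 11.59 on the LFD arrays, 11.62 and 11.59 on the LFD+As arrays, 11.44 and 11.50 on the HFD arrays and 11.54 and 11.76 on the HFD+As arrays. Its HFD arrays were the 2 lowest. Its largest difference in a comparison not used by the rule was 0.05 (SE 0.12, limma adjusted p = 0.836), in HFD+As against LFD+As.

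Akr1a1, Akr7a5 and Akr1b8 reduce aldehydes. Akr1a1, the aldehyde reductase that makes gulonate in ascorbate synthesis, was 12.74 and 12.74 on the LFD arrays, 12.70 and 12.84 on the LFD+As arrays, 12.67 and 12.53 on the HFD arrays and 12.66 and 12.73 on the HFD+As arrays. Its HFD and HFD+As arrays lay below both LFD arrays, and HFD+As also overlapped LFD+As. It was the only tested member with a negative difference in both HFD+As against LFD (-0.05, SE 0.11) and HFD+As against LFD+As (-0.07, SE 0.11), with limma adjusted p = 0.83 and 0.728.

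Akr7a5, which reduces succinic semialdehyde and aflatoxin dialdehyde, was 10.78 and 10.67 on the LFD arrays, 10.68 and 10.72 on the LFD+As arrays, 10.73 and 10.82 on the HFD arrays and 10.89 and 10.80 on the HFD+As arrays. Its HFD+As arrays lay above those of LFD (difference 0.13, SE 0.11, limma adjusted p = 0.497) and of LFD+As (0.15, SE 0.11, adjusted p = 0.41). Akr1b8, a reductase of lipid-derived aldehydes, was dim at 6.77 and 6.46 on the LFD arrays, 6.85 and 6.75 on the LFD+As arrays, 6.77 and 6.93 on the HFD arrays and 6.78 and 7.04 on the HFD+As arrays. Its mean of 6.79 lay under the lowest mean kept for testing, 6.97, and whether it lay above background is not known. In a fit with no filter its difference in HFD+As against LFD was 0.30 (SE 0.14, limma adjusted p = 0.266).

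The counts over the members are set beside those over all genes, first for the comparisons that the rule did not use and then for HFD+As against LFD, where Akr1c19 is left out. LFD+As against LFD called 8 genes (0.0669%) by limma over all genes, with 401 at an unadjusted p under 0.05, and 0 of the members by either measure. Their median difference was 0.02 and 5 of 8 were positive (4 after quantile normalization), against a median of -0.01 and 47.5% positive over all genes. HFD+As against LFD+As called 10.3% of all genes and 0 of 8 members, whose smallest adjusted p was 0.199. None of the members had an unadjusted p under 0.05 either, beside 3367 of all 11963 genes tested. There 7 of 8 members were positive, with a median of 0.13, while 34.4% of all genes were positive and their median was -0.09. HFD+As against LFD called 16% of all genes by limma and 0 of the 7 tested members other than Akr1c19. Among those members only Akr1c14 had an unadjusted limma p under 0.05 (0.0266), beside 3690 of all 11963 genes tested. Of these 7, 6 were positive (5 after quantile normalization), with a median of 0.13 against -0.10 over all genes, of which 33.4% were positive. With the span trend removed, all 7 were positive with a median of 0.18, and the all-gene median was 0.002. Since Akr1c19 was selected for its value in HFD+As and the arrays of HFD+As enter both comparisons, and since the comparisons share arrays with each other and with the selecting ones, these counts are descriptions set side by side.

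Members whose arrays did not overlap between groups were 1 of 8 higher and 0 lower in LFD+As against LFD (28.6% of all genes did not overlap, either direction), 3 higher and 0 lower in HFD+As against LFD+As (59.4%), and 3 higher and 1 lower in HFD+As against LFD (54.9%). The 3 higher were Akr1c13, Akr1c14 and Akr7a5 in both of the latter, and the lower one was Akr1a1. Shares of this size are no more than those of all genes. In the comparisons that the rule used, 0 were higher and 5 lower in HFD against LFD (38.1%) and 4 higher and 0 lower in HFD+As against HFD (56.5%), from which nothing is read. The members other than Akr1c19 had differences in HFD against LFD from -0.17 (Akr1c20) to 0.17 (Akr1c12). In HFD+As against HFD they ranged from 0.08 (Akr7a5) to 0.38 (Akr1c14).

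**Figure D2:**
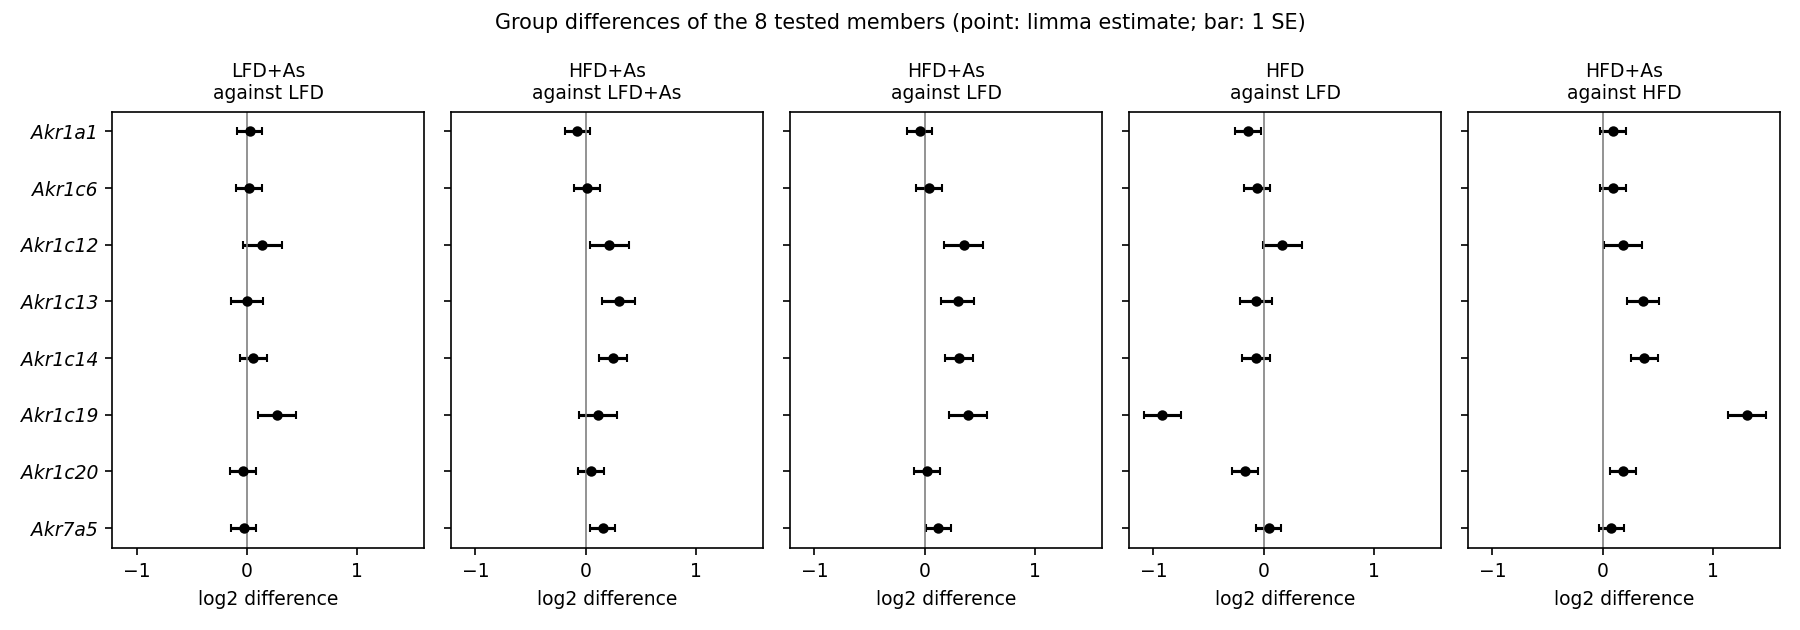
Log2 difference (x axis) of the tested aldo-keto reductases in each pairwise comparison, as points with bars of 1 SE from the fit to 2 arrays per group. Akr1c19 stands at -0.92 in HFD against LFD and at 1.31 in HFD+As against HFD, and the other members lie between -0.17 and 0.38 in these and all other comparisons.

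The rest of the family was listed as 10 further genes, of which 9 had a cluster (Akr1b3 had none under that symbol) and 3 passed the filter. Of Akr1b10, Akr1d1 and Akr1e1, 0 passed limma's threshold in any of the 5 comparisons. Only 1 had an unadjusted p under 0.05, Akr1d1 in HFD against LFD, beside 1232 of all 11963 genes tested. Akr1d1, the steroid reductase that acts on bile acid precursors and on cortisone and testosterone, was -0.36 (SE 0.13, limma adjusted p = 0.348) there. The 3 genes had median differences of -0.07 in HFD+As against LFD and -0.02 in HFD+As against HFD.

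Genes of other enzymes that handle the same kinds of substrate were compared in the same fit. The lists were chosen with earlier results of these data known, and their counts are read beside the share of all genes called. In LFD+As against LFD, 0 genes of the carbonyl and aldehyde (25 tested), steroid dehydrogenase (16), ascorbate and glucuronate (8), NADPH supply (12) and NRF2 target (20) lists passed limma's adjusted threshold. The numbers with an unadjusted p under 0.05 were 1, 2, 0, 0 and 1, beside 401 of all 11963 genes tested. HFD against LFD also called 0 genes of all 5 lists, with 7, 1, 4, 2 and 6 at an unadjusted p under 0.05. Over all 11963 genes tested, 1232 had an unadjusted p under 0.05 in that comparison.

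In HFD+As against LFD, 8 of 25 carbonyl and aldehyde genes fell and 0 rose, with a list median of -0.13, beside 16% of all genes called in either direction and an all-gene median of -0.10. Aldh1l1, the formyltetrahydrofolate dehydrogenase, fell by 0.78 (SE 0.14, limma adjusted p = 0.00549) from 12.97 and 12.89 in LFD to 12.08 and 12.22 in HFD+As. Dhrs9, a retinol and steroid dehydrogenase, fell by 0.76 (SE 0.15), the mitochondrial aldehyde dehydrogenase Aldh1b1 by 0.72 (SE 0.13) and the succinic semialdehyde dehydrogenase Aldh5a1 by 0.72 (SE 0.16), with limma adjusted p between 0.00596 and 0.0113. The count was not stable: it became 1 and 4 when LFD replicate 1 or 2 was left out, 0 and 5 when HFD+As replicate 1 or 2 was left out, and with the span trend removed 5 were called lower and 1 higher, with a list median of 0.001.

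Aldehyde and carbonyl genes also fell in HFD+As against LFD+As, where 6 of 25 were called lower and 0 higher, beside 10.3% of all genes. That count was 3 without LFD+As replicate 1 or either LFD array, 4 without HFD+As replicate 2, and 0 without LFD+As replicate 2, without HFD+As replicate 1, with no filter and with the span trend removed (list median then 0.02, against -0.21). In HFD+As against HFD, 1 was called higher and 1 lower. The one that rose was Aox1, the aldehyde oxidase, which was 10.24 and 10.15 on the LFD arrays, 10.57 and 10.54 on the LFD+As arrays, 9.91 and 9.60 on the HFD arrays and 10.42 and 10.60 on the HFD+As arrays. Its HFD arrays were the 2 lowest of the 8, and the difference was 0.75 (SE 0.13, limma adjusted p = 0.0179), a call lost without HFD+As replicate 1 and with no filter. The one that fell was Dhrs9, by 0.75 (SE 0.15, adjusted p = 0.0276), a call lost without HFD+As replicate 1, HFD replicate 1 or either LFD array, with no filter, with quantile normalization and with the span trend removed.

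Steroid dehydrogenases and reductases outside the family gave 1 call in HFD+As against LFD (2 with the span trend removed), Hsd17b10, a mitochondrial dehydrogenase of hydroxyacyl and steroid substrates. It rose by 0.61 (SE 0.14, limma adjusted p = 0.0134) from 12.21 and 12.26 in LFD to 12.75 and 12.94 in HFD+As, and the call was lost without any 1 of those 4 arrays. In ascorbate metabolism, the downstream partner of Akr1a1 is regucalcin, Rgn, which as gulonolactonase acts on the product of the gulonate step. Rgn fell by 0.79 (SE 0.15, adjusted p = 0.00703) from 12.13 and 12.07 in LFD to 11.43 and 11.20 in HFD+As, a call lost without LFD replicate 1. Akr1a1 itself had a difference of -0.05 in that comparison. In NADPH supply, 1 of 12 genes was called, Mthfd1, which fell by 0.44 (SE 0.13, adjusted p = 0.0394), a call lost without either LFD array, without HFD+As replicate 1, with no filter and with the span trend removed.

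NRF2 is the transcription factor of the electrophile and oxidant response. Of 20 of its targets tested, 3 rose and 1 fell in HFD+As against LFD, beside 16% of all genes called in either direction, and the list median was -0.12. With the span trend removed 1 was called, Hmox1, and the list median was 0.07. Nqo1, the quinone reductase, was 7.82 and 7.20 on the LFD arrays, 7.79 and 7.42 on the LFD+As arrays, 7.12 and 7.04 on the HFD arrays and 7.83 and 9.03 on the HFD+As arrays. HFD+As replicate 2 was the highest array, and HFD+As replicate 1 lay close to the higher array of LFD. The difference in HFD+As against HFD was 1.35 (SE 0.29, limma adjusted p = 0.0345), and it was 0.74 with HFD+As replicate 2 left out and 1.95 with HFD+As replicate 1 left out. That call was lost with no filter, with quantile normalization, with the span trend removed (adjusted p = 0.0739) and without either LFD array, HFD replicate 1 or HFD+As replicate 2. In HFD+As against LFD, Nqo1 was 0.92 (SE 0.29, adjusted p = 0.0492), Srxn1, which restores oxidised peroxiredoxins, 0.61 (SE 0.19, adjusted p = 0.0425), Hmox1, the heme oxygenase, 0.59 (SE 0.14, adjusted p = 0.0163), and Osgin1 -0.45 (SE 0.14, adjusted p = 0.0428). Hmox1 was 8.31 and 8.19 on the LFD arrays, 8.73 and 8.47 on the LFD+As arrays, 9.04 and 8.67 on the HFD arrays and 8.88 and 8.80 on the HFD+As arrays. Its difference was 0.60 in HFD against LFD and -0.02 in HFD+As against HFD, so it was not particular to the combined exposure. With the span trend removed the limma adjusted p was 0.0667 for Nqo1, 0.0748 for Srxn1 and 0.133 for Osgin1. With either LFD array left out the list had 0 calls. In HFD+As against HFD, 2 of the 20 rose, Nqo1 and Ephx1, the latter by 0.53 (SE 0.13, limma adjusted p = 0.0482), a call lost on leaving out any 1 of the 8 arrays.

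**Figure D3:**
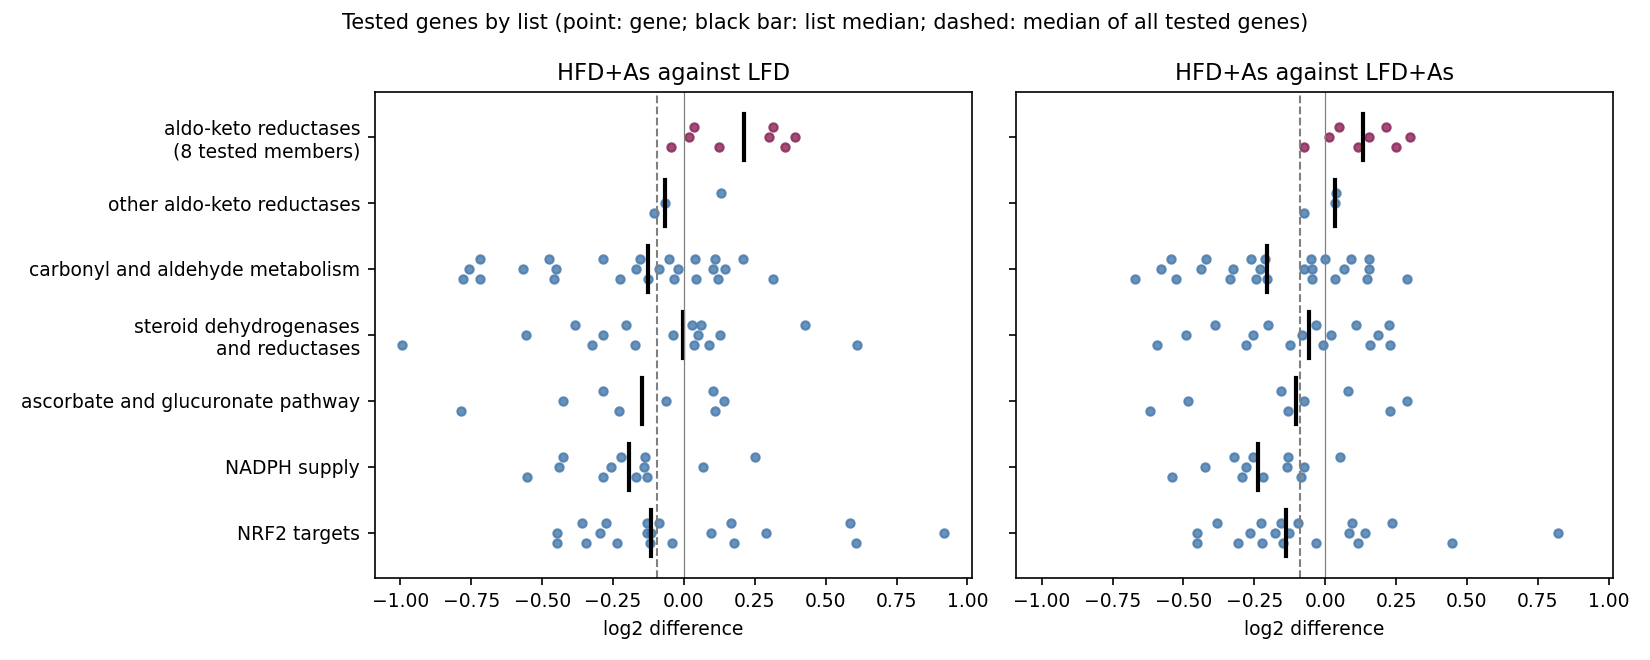
Log2 difference (x axis) of the tested genes of the related lists and of the aldo-keto reductases in HFD+As against LFD (left) and HFD+As against LFD+As (right); each point is 1 gene, black bars are list medians and the dashed line is the median of all tested genes. The aldehyde and carbonyl list has a median of -0.13 in HFD+As against LFD, and the 8 aldo-keto reductases 0.21 with Akr1c19 counted.

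Within the family, Pearson's r with Akr1c19 over the 8 arrays ranged from 0.01 (Akr7a5) to 0.88 (Akr1c20). Other genes whose signal went with that of Akr1c19 were named by the same measure of likeness, among all tested genes outside the family members. The 5 most like were Cyp2c67, a cytochrome P450 (r = 0.96, Spearman rho = 0.833), Ftl1, the ferritin light chain (0.95, 0.762), Ugt2b5, a glucuronosyltransferase (0.949, 0.833), the olfactory receptor gene Olfr796 (0.948, 0.881) and Ephx1, the microsomal epoxide hydrolase (0.939, 0.762). They share its arrays and, by the way they were chosen, its low HFD arrays. Without the HFD arrays (6 arrays) r was 0.744, 0.887, 0.904, 0.764 and 0.772. Olfr796 was dim, between 6.91 and 7.36 over the 8 arrays, beside a lowest mean kept for testing of 6.97. Whether it lay above background is not known.

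The amplitude of these genes was smaller than that of Akr1c19. Ugt2b5 was 12.21 and 12.19 on the LFD arrays, 12.36 and 12.27 on the LFD+As arrays, 11.95 and 11.89 on the HFD arrays and 12.37 and 12.64 on the HFD+As arrays, with HFD lowest. Its mean was -0.27 in HFD against LFD and 0.58 in HFD+As against HFD. Ephx1 was 12.31 and 12.34 on the LFD arrays, 12.33 and 12.49 on the LFD+As arrays, 11.99 and 11.94 on the HFD arrays and 12.31 and 12.67 on the HFD+As arrays, or -0.36 and 0.53. Cyp2c67, Ftl1 and Olfr796 had differences of -0.23, -0.18 and -0.20 in HFD against LFD and of 0.35, 0.28 and 0.34 in HFD+As against HFD.

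**Figure D4:**
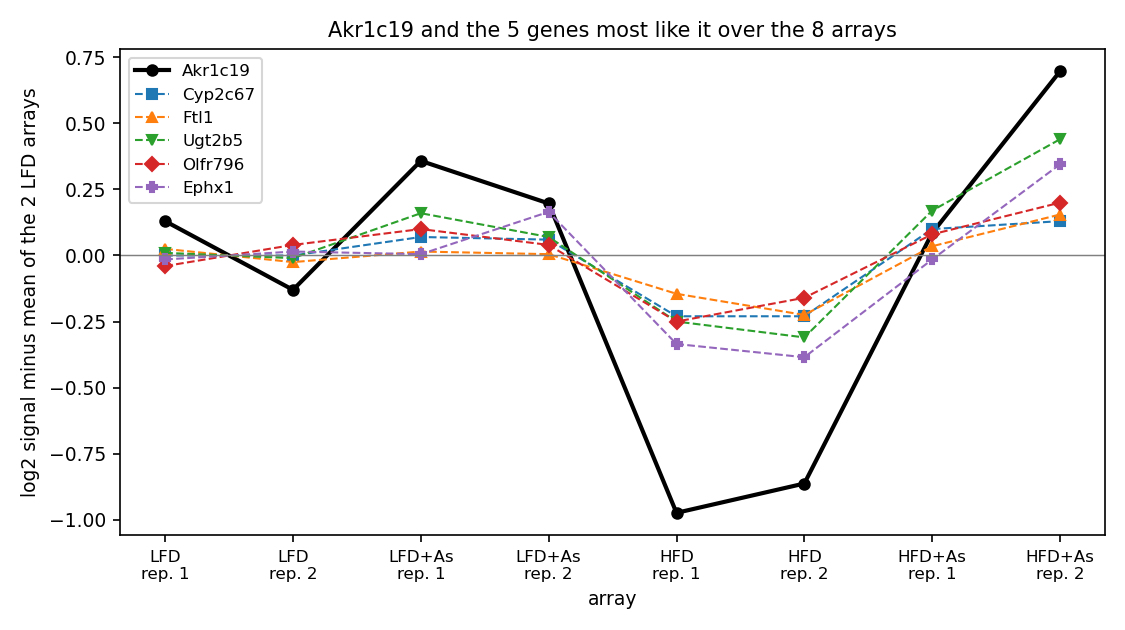
Log2 signal minus the gene's mean over the 2 LFD arrays (y axis) in the 8 arrays (x axis) for Akr1c19 and the 5 genes most like it, 1 line per gene. All 6 lines are lowest in the HFD arrays, where Akr1c19 lies farthest below LFD.

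Cell type markers moved between the same groups. The mean signal over the 10 macrophage markers ranged from 8.98 to 9.16 in HFD and from 8.63 to 8.66 in HFD+As, against 8.74 to 8.96 in LFD and LFD+As. Of 9 tested macrophage markers 3 fell in HFD+As against HFD by limma (Cd163, Adgre1 and Cd5l), beside 3.63% of all genes called. All 3 calls were lost without HFD+As replicate 1 and with the span trend removed (adjusted p between 0.126 and 0.185). In HFD+As against LFD, Csf1r fell by 0.66 (SE 0.18, limma adjusted p = 0.0283), a call lost with the span trend removed. Marco rose there by 0.54 (SE 0.11, limma adjusted p = 0.00997). That call was kept with the span trend removed (adjusted p = 0.0078) and lost without LFD replicate 2 or HFD+As replicate 1. Sinusoidal endothelium markers, 7 of 7 tested, averaged 8.94 to 8.98 in HFD+As and 9.15 to 9.61 in the other groups. Hepatocyte markers averaged 13.83 to 13.84 in LFD, 13.81 in LFD+As, 13.68 to 13.81 in HFD and 13.68 to 13.75 in HFD+As. Of 11 tested, Hnf4a was called lower in HFD+As against LFD+As (-0.41, SE 0.12, limma adjusted p = 0.0465). Cps1 was called lower in HFD+As against LFD (-0.39, SE 0.12, limma adjusted p = 0.0391). Both calls were lost with the span trend removed. In pooled whole liver, fewer cells of a type and less RNA per cell cannot be told apart. The part of these shifts in the values of the aldo-keto reductases was not tested.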

How the data were processed

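Liver RNA of 4 groups of mice was measured on 8 arrays. The authors deposited log2 signals per transcript cluster, for which the submitters' processing notes name Affymetrix Expression Console 1.0; background correction, normalization and genome build are not given in the sources used here. Values were used as deposited. Genes were named from the platform annotation through clusters with 1 symbol (21789 of 23410 listed), the cluster of highest mean standing for its gene. The 60% of genes with the highest means were tested. Limma 3.58.1 (R 4.3.3) fitted 4 group means to all 8 arrays, with 4 residual and 9.32 prior degrees of freedom, with Benjamini-Hochberg adjustment of the p-values of each comparison. The fit was tested on simulated data. The median SE of a group difference was 0.127, and the number of arrays limits the precision. Alternatives were no filter, quantile normalization, the replicate number as a block, the mean over clusters of a gene, removal of the gene-span trend, a variance trend, and leaving out each array. The members and lists were chosen with earlier results of these data known. The named genes are the members, the 5 genes most like Akr1c19, and up to 4 called genes per list with the largest change. Promoter sequences and gene spans came from RefSeq tables of assembly GRCm38.p6.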

Additional observations from a re-analysis of the deposited data

Results flagged for a closer look

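Akr1c14 had values of opposite sign with high fat on the 2 waters. Its HFD arrays both lay below both LFD arrays (-0.07, SE 0.13, a comparison used for selection), and its HFD+As arrays both lay above both LFD+As arrays (0.25, SE 0.13, limma adjusted p = 0.212), which does not pass the threshold. The difference between these 2 values was 0.32 (0.319 before rounding, SE 0.18), and because it contains the comparisons used to choose the family it was not tested.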

How the results depend on the processing

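Of 560 alternative values of single members, 553 kept their side of the threshold and 24 changed sign, 19 of these on leaving out an array. The 24 leave out Akr1c13 in LFD+As against LFD, whose reported value rounds to 0. Several settings could not move a difference: no filter, the replicate block, the mean over clusters, the variance trend, and leaving out an array of neither compared group. Signs were fixed there, so these counts do not measure stability. The number of members called in HFD+As against LFD was 1 with the gene-span trend removed (Akr1c14) and 0 to 1 on leaving out each array; the 1 is Akr1c19, whose value there follows from its selection and is not read as a call. In HFD against LFD, used for selection, the number was 0 with no filter and 0 to 1 on leaving out each array. Changes of sign with a value over 1 SE from 0 before or after came on leaving out an array, for Akr1c13 in LFD+As against LFD (-0.18 to 0.18), Akr1c12 in HFD+As against LFD+As (-0.005 to 0.43), Akr1c19 in HFD+As against LFD+As (-0.19 to 0.42) and Akr1c12 in HFD+As against HFD (-0.032 to 0.41). Same-numbered arrays did not deviate together, so the numbers pair nothing; with the replicate number as a block, the counts of members called did not change, and all genes called went from 434 to 230 in HFD+As against HFD. The block lost the calls of Mthfd1, Nqo1 and Osgin1 in HFD+As against LFD and of Ephx1, Cd163 and Adgre1 in HFD+As against HFD, and gave 3 calls of aldehyde and carbonyl genes in HFD+As against LFD+As, against 6 without it. Over all genes, no filter gave 1, 165, 1084, 13 and 29 calls (LFD+As against LFD, HFD+As against LFD+As, HFD+As against LFD, HFD against LFD, HFD+As against HFD), and quantile normalization 5, 959, 1915, 41 and 104, of which 80%, 71.7%, 70.3%, 36.6% and 79.8% were lower, against 62.5%, 82.2%, 77.5%, 25.5% and 89.6%. Removing the span trend gave 7, 63, 1135, 45 and 43. Leaving out each array gave 0 to 26, 17 to 1481, 206 to 2050, 0 to 72 and 24 to 1121; the lowest were without LFD replicate 1, LFD+As replicate 2, HFD+As replicate 1, LFD replicate 1 and HFD+As replicate 1, in that order. The cause of these changes was not tested. With 2 pools per group, small differences such as those of Akr1c6 or Akr1c20 were not detectable.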

Other observations

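Akr1c21, another gene of the chromosome 13 group, was too dim for testing, with a mean signal of 5.74. Its values in a fit with no filter were -0.48 in HFD against LFD and 0.47 in HFD+As against HFD, and whether they lay above background is not known.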
